A study of Mus musculus with 36 samples.

Results

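The 10 genes Sst, Npy, Cck, Vip, Tac1, Penk, Pdyn, Cort, Pnoc and Adcyap1 encode precursors of neuropeptides. They were chosen by name, as peptides of interneurons and projection neurons, and are 10 of the 24421 genes counted in this series. The study asked how loss of Pogz, which encodes a zinc finger protein found at heterochromatin, changes RNA levels in the mouse brain. Poly(A) RNA of the cerebellum and of the hippocampus was sequenced from the same 18 adult C57Bl/6 mice, 3 males and 3 females of each of 3 genotypes. The 6 control mice were Pogzfl/fl without Cre, the 6 cKO+/- mice were NesCre/+; Pogzfl/+ and the 6 cKO-/- mice were NesCre/+; Pogzfl/fl. The controls therefore carried the same floxed alleles as the cKO-/- mice, and both mutant groups also carried the transgene, so effects of Cre and of Pogz cannot be told apart between controls and mutants. The mutant groups shared Cre and differed in Pogz alleles, but were not tested against each other here. The Nestin promoter drives this Cre in neural progenitors, so cells of other lineages, such as microglia and blood vessels, should keep an intact Pogz.

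Neuropeptide precursors are cleaved by prohormone convertases and trimmed by carboxypeptidase E inside dense core vesicles, and the released peptides act on G protein-coupled receptors. In the hippocampus, somatostatin (Sst), neuropeptide Y (Npy), cholecystokinin (Cck), vasoactive intestinal peptide (Vip) and cortistatin (Cort) are best known from GABAergic interneurons, with Cck also made by pyramidal cells, while the dynorphins from Pdyn fill the mossy fibre terminals of dentate granule cells. Penk gives the enkephalins, Tac1 substance P and neurokinin A, Pnoc nociceptin, and Adcyap1 the peptide PACAP.

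Library totals were between 17609321 and 45544188 counts in the hippocampus and between 21421850 and 32544929 counts in the cerebellum. Levels are given as CPM, the counts of a gene scaled to the size of its library with the TMM factors of edgeR. Pogz was lower in the mutants of both tissues. Its lowest, median and highest hippocampal levels were 89.0, 90.7 and 92.8 CPM in the controls, 74.0, 75.6 and 80.2 CPM in cKO+/- and 53.6, 60.2 and 67.7 CPM in all 6 cKO-/- mice (58.7, 60.7 and 67.7 CPM without Sample_1160), and these groups did not overlap. In the cerebellum they were 89.6, 93.1 and 130 CPM in the controls, 66.4, 80.1 and 81.5 CPM in cKO+/- and 57.01, 65.3 and 74.0 CPM in cKO-/- mice, where both mutant groups lay below every control but overlapped each other. RNA of Pogz remained in every cKO-/- library. Counts per gene do not separate the floxed exons from the others, and the source of the remaining RNA was not tested.

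Several libraries stood apart from their groups. The hippocampal library of the cKO-/- animal Sample_1160 had a median Pearson correlation of 0.875 with the other hippocampal libraries across genes, which are not independent replicates, while the next lowest library had 0.976. Its short genes were high and its long genes low: the median fold against the median of the other cKO-/- libraries was 3.05 over 881 genes of up to 1000 exonic bases and 0.635 over the 4632 longest genes. The hippocampal tests given first leave this library out.

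The cerebellar libraries Sample_933 and Sample_1433 (cKO+/-) and Sample_936 and Sample_1385 (cKO-/-) had higher sums over a list of brainstem marker genes than the rest. The 16 genes of that list summed to 115, 159.9, 157 and 153 CPM in them and to between 24.6 and 63.4 CPM in the other cerebellar libraries. Slc17a6, a glutamate transporter of subcortical neurons, was the most abundant and gave 120.8 of the 153 CPM in Sample_1385. In that library Slc6a5 (9.89 CPM) lay within the controls and Th (4.66 CPM) below them. Gata3 was highest there, at 4.01 CPM. Choroid plexus genes, led by transthyretin (Ttr), summed to 3631, 4622 and 4910 CPM in Sample_933, Sample_936 and Sample_1433 and to at most 269 CPM in every other cerebellar library. Choroid plexus genes also exceeded 1000 CPM in 5 hippocampal libraries, from the controls Sample_1129 and Sample_1170, the cKO+/- animal Sample_1189 and the cKO-/- animals Sample_1219 and Sample_1385. The hippocampal control Sample_1129 was high in cerebellar marker genes as well, with Gabra6, a granule cell receptor subunit, at 49.4 CPM against at most 1.09 CPM in any other hippocampal library.

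The cerebellar control Sample_1190 had the lowest median correlation with the other cerebellar libraries, 0.969, next to 0.971 for Sample_1385. Its log2 ratio of short to long genes was 0.53, with 0.40 in Sample_1379, 0.22 in Sample_1385, 0.18 in Sample_1172 and at most 0.0807 in the other cerebellar libraries.

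The tissue labels fitted the marker genes. Of 15 hippocampal markers, 13 were higher in the hippocampus of the controls and 1 in the cerebellum. Of 15 cerebellar markers, 14 were higher in the cerebellum of the controls and 1 in the hippocampus. A further split ran with genotype: all 6 controls bore animal numbers between Sample_1120 and Sample_1219, while 3 cKO+/- animals and 4 of the cKO-/- animals (Sample_933, Sample_936, Sample_938, Sample_1371, Sample_1379, Sample_1385 and Sample_1433) lay outside this range. What the numbers stand for is not stated, and 5 cerebellar libraries discussed below, with high Sst, all came from outside it.

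The promoters of 5 members with an allele effect called below in either tissue are shown as the 250 bases before the start site, from RefSeq on GRCm38.p6, so that shared letters can be seen. Promoters were found for 8 of the 10 members, of which those of Npy, Vip and Cort and 1 of 2 each for Pdyn and Adcyap1 are not shown. The table of promoters used here had no entry for Penk and Pnoc. Capitals mark matches, on either strand, to the cAMP response element TGACGTCA, to its variant TGCGTCA and to the core TGACG, which reads CGTCA on the other strand. Both longer motifs contain the core or its reverse complement, so their matches are counted again as core matches.
Sst (chr16:23890845-23891094, minus strand): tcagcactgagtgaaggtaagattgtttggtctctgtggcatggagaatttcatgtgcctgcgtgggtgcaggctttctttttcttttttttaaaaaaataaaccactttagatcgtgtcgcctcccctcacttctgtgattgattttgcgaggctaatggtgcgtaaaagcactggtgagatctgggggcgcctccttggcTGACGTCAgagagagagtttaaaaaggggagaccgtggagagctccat
Tac1 (chr6:7554811-7555060, plus strand): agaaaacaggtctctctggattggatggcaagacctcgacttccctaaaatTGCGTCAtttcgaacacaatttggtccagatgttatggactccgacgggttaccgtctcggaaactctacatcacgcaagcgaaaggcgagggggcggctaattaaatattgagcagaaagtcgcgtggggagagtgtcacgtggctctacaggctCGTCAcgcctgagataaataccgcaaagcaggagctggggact
Cck (chr9:121495695-121495944, minus strand): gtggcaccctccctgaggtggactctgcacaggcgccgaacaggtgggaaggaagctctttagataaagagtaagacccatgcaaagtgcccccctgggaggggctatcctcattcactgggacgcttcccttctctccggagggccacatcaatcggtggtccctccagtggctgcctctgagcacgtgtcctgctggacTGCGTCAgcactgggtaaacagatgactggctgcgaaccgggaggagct
Adcyap1 (chr17:93198767-93199016, plus strand): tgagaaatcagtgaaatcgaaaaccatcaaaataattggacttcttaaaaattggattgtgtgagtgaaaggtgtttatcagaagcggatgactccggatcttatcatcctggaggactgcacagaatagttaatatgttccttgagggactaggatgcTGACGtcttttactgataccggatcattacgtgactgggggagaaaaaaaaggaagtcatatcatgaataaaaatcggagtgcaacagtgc
Pdyn (chr2:129699939-129700188, minus strand): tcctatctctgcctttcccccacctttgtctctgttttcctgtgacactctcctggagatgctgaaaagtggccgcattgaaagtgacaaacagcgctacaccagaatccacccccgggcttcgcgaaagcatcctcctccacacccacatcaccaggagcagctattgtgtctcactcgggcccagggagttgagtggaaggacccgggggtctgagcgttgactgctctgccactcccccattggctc

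The full element TGACGTCA lay in the promoter of Sst, at positions -48 to -41 from the start site, and in 1.55% of all 32851 promoters of this length. The variant TGCGTCA lay in the promoters of Cck, Tac1 and Cort, 3 of the 8 members with one, against 1.75% of all. The core alone was found in 6 members, now with Vip and Adcyap1, against 17.8% of all promoters, and neither Npy nor Pdyn held any of these motifs. A match is a description of letters, not a binding site, and a missing match speaks only of this window.

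In the control hippocampus Cck and Sst were the most abundant of the 10 transcripts for their length. On the scale of CPM per kilobase of exon, as mean ± SD over 6 control mice, Cck stood at 345 ± 32.0 and Sst at 277 ± 46.6. Npy followed at 69.5 ± 12.9, then Penk at 17.8 ± 3.72. Below these came Vip at 9.53 ± 2.46, Cort at 8.22 ± 1.18, Pdyn at 7.63 ± 1.13 and Tac1 at 7.11 ± 2.76, and last Pnoc at 4.74 ± 0.377 and Adcyap1 at 2.11 ± 1.05. Within 1 SD of each mean, Cck and Sst did not differ beyond their spread, nor did Vip, Cort, Pdyn and Tac1, nor Tac1 and Pnoc. The steps from Sst to Npy, from Npy to Penk, from Penk to Vip and from Pnoc to Adcyap1 exceeded this spread. Within every control library, however, Cck exceeded Sst and Tac1 exceeded Pnoc.

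The control cerebellum had another order, led by the enkephalin precursor. Per kilobase, Penk stood at 76.1 ± 15.2 CPM, Cck at 56.3 ± 12.02, Npy at 21.8 ± 3.88 and Adcyap1 at 4.28 ± 0.536 (SD, n = 6). Sst had 1.32 ± 0.567 and Pnoc 1.03 ± 0.311 CPM per kilobase, followed by Tac1 at 0.256 ± 0.118 and Cort at 0.177 ± 0.1001. Vip and Pdyn were close to absent, at 0.0311 ± 0.0194 and 0.0228 ± 0.0253 CPM per kilobase, and rested on at most 2 and 5 counts in any control library. Penk and Cck, Sst and Pnoc, Tac1 and Cort, and Vip and Pdyn were the neighbours that did not differ beyond 1 SD. Penk still exceeded Cck within every control library.

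**Figure D1:**
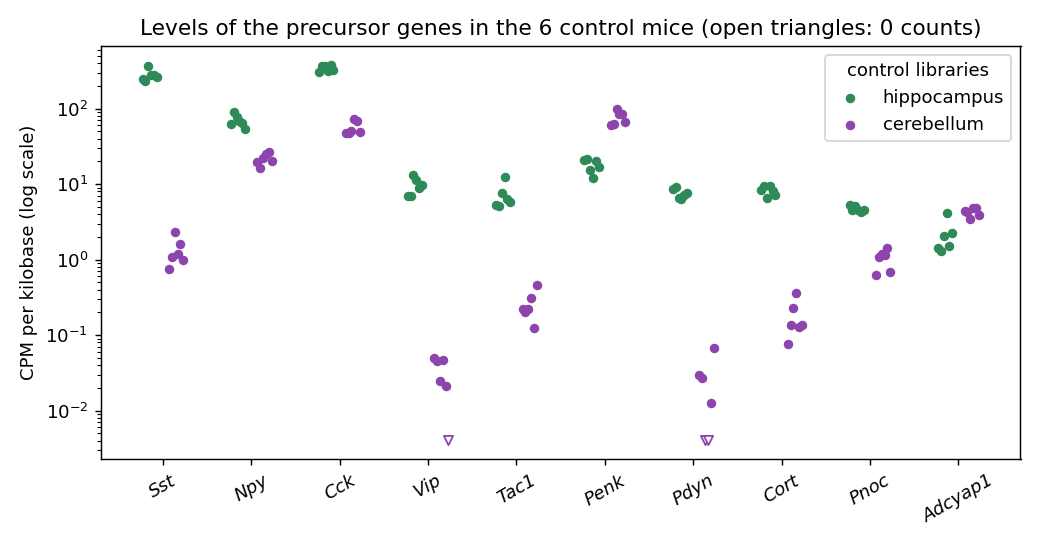
Levels of the 10 precursor genes in the 6 control mice, in CPM per kilobase of exon on a log axis, with 1 point per library and open triangles where a library had 0 counts. Every hippocampal point lies above every cerebellar point of the same gene except for Penk and Adcyap1.

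All 10 members passed the test between the tissues of the 6 controls, where most genes did as well. Vip, Tac1, Pdyn and Cort had at most 0.481 CPM in any control cerebellum. They passed the filter through hippocampal libraries only, where they were high. Sst, with a control median of 0.681 CPM in the cerebellum, also needed hippocampal libraries to pass. With edgeR's quasi-likelihood test, adjusted after Benjamini-Hochberg over 14224 genes at an FDR of 0.05, 35.2% of all genes were called higher in the hippocampus and 36.7% higher in the cerebellum. Of the members, 8 were higher in the hippocampus and 2 in the cerebellum. Sst was higher in the hippocampus by a log2 fold change of 7.79 (SE 0.191, adjusted p = 5.95e-13), and Penk was higher in the cerebellum, with a log2 fold change of -2.01 (SE 0.162, adjusted p = 8.07e-08). Adcyap1 was also higher in the cerebellum, with a log2 fold change of -0.95 (SE 0.240, adjusted p = 0.00288). In each of the 6 control animals the members kept these sides, with log2 ratios of hippocampus to cerebellum between 7.22 and 8.15 for Sst, between -2.80 and -1.53 for Penk and between -1.67 and -0.23 for Adcyap1.

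The tissues of an animal were paired by its number, and with the animal as a replicate block all 10 members were called again. The blocked log2 fold changes were 7.81 for Sst, -2.01 for Penk and -1.02 for Adcyap1. For the members with few cerebellar counts, fitted folds depend on the prior count, so the ratio of summed counts is given instead, scaled by library size. Vip had 3475 counts in the control hippocampus and 8 in the cerebellum, a ratio of 337 with an exact 95% binomial interval of 171 to 780. For Pdyn the sums were 4506 and 10 counts and the ratio 349, with an interval of 190 to 729, and for Cort they were 961 and 15 counts with a ratio of 49.6 and an interval of 29.95 to 89.1. Such intervals cover counting error only.

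In the hippocampus of Pogz mutants the opioid precursors moved in opposite directions: Penk rose and Pdyn fell. Without Sample_1160, Penk had a lowest, median and highest level of 16.999, 26.3 and 30.4 CPM in the controls and of 22.8, 31.0 and 41.1 CPM in cKO+/- mice. The 5 cKO-/- libraries had 41.5 (Sample_1379), 41.6 (Sample_1219), 42.8 (Sample_1371), 44.0 (Sample_1385) and 59.8 (Sample_936) CPM, and Sample_1160 had 71.1 CPM. Every cKO-/- library lay above every control, and cKO+/- mice overlapped the controls and stayed below the cKO-/- mice. Pdyn had 16.1, 19.0 and 23.5 CPM in the controls and 9.99, 13.4 and 17.2 CPM in cKO+/- mice. Its cKO-/- libraries had 7.13 (Sample_1219), 7.59 (Sample_1371), 8.16 (Sample_1379), 9.97 (Sample_936) and 10.6 (Sample_1385) CPM, and 9.01 CPM in Sample_1160. All of these lay below every control, and cKO+/- mice lay between, overlapping each group.

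**Figure D2:**
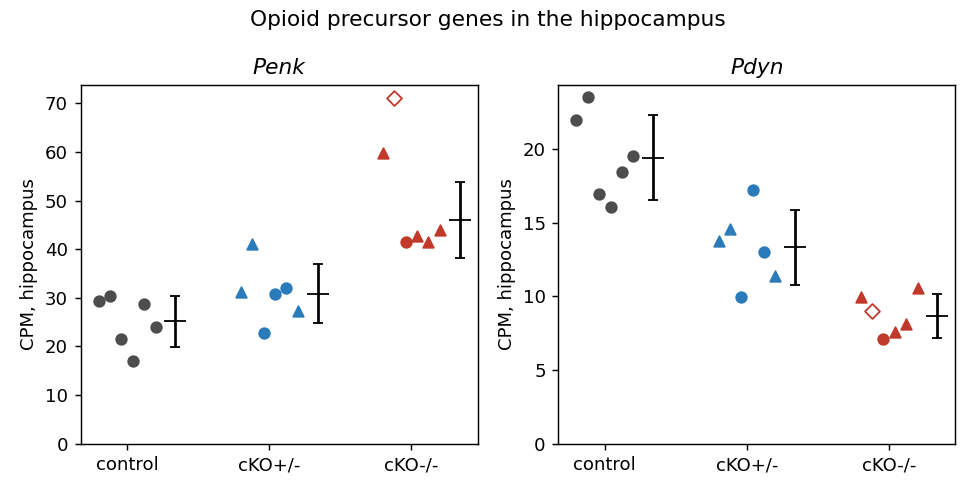
Penk and Pdyn in the hippocampus, in CPM, with 1 point per library, bars for mean and SD without Sample_1160 (open diamond), and triangles for animals numbered outside Sample_1120 to Sample_1219. All cKO-/- libraries lie above the controls for Penk, from 41.5 CPM up, and below them for Pdyn, at 10.6 CPM or less.

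Per allele lost, Penk rose by a log2 fold change of 0.43 (SE 0.0754, adjusted p = 0.00287) and Pdyn fell by 0.58 (SE 0.0700, adjusted p = 7.7e-05) in the quasi-likelihood test of edgeR (Benjamini-Hochberg). These 2 of 10 members compare with 4.44% of all 14339 genes tested. The median log2 fold change of the members was -0.04, against 0.00 over all genes. With all 18 libraries, where 1.72% of genes were called, Penk had 0.50 (adjusted p = 0.00433) and Pdyn -0.58 (adjusted p = 0.000105). Between cKO-/- and control mice, where 4.87% of genes were called, the log2 fold changes were 0.86 (SE 0.152) for Penk and -1.16 (SE 0.145) for Pdyn, and both were called. Penk and Pdyn were also the 2 members whose cKO-/- libraries all lay on 1 side of the controls, as those of 3.65% of all genes did. Whether fewer cells make a peptide or each cell holds less RNA cannot be told apart in tissue samples.

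No member passed in cKO+/- mice against controls, where 0.0349% of all genes were called by edgeR. At an unadjusted p under 0.05 by edgeR there was 1 of 10 members, beside 1440 of 14339 genes. This was Pdyn, with a log2 fold change of -0.54 (SE 0.133, adjusted p = 0.178 by edgeR). DESeq2 called 95 genes, among them 1 member, Pdyn (adjusted p = 0.0210). Without the cKO+/- animal Sample_1176 edgeR called Pdyn as well, at -0.63.

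Both calls held in each of the 17 fits that left 1 library out, with Penk between 0.38 and 0.46 and Pdyn between -0.61 and -0.54. With a covariate for the animals outside the range of numbers Penk had 0.35 and was no longer called (adjusted p = 0.217), while Pdyn had -0.62 (adjusted p = 0.00390), and among animals inside the range alone, with 1 cKO-/- library, neither was called, at 0.27 and -0.65. Over all alternatives of these edgeR and DESeq2 fits the Benjamini-Hochberg adjusted p ran from 5.44e-06 to 0.553 for Penk and from 1.1e-12 to 0.104 for Pdyn.

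The other 8 members did not pass in the hippocampus, with slopes per allele between -0.13 for Cort and 0.11 for Adcyap1. In 6 of 17 fits with 1 further library left out the sign of Pnoc changed, with slopes between -0.0386 and 0.0473. The signs of 5 of the 8, Pnoc among them, changed with Sample_1160. Sst had -0.09 without it and 0.18 with it, Npy -0.12 and 0.14, Cck -0.08 and 0.17, Cort -0.13 and 0.44, and Pnoc -0.00 and 0.12, none of them called either way. In that library Cort was 8.97 times, Sst 4.42 times, Npy 4.32 times and Cck 3.70 times the median of the other cKO-/- libraries, and the cKO-/- highest level of Cck thereby became 1013 CPM beside a next highest of 336 CPM. These 4 transcripts have between 498 and 854 exonic bases. Pdyn and Adcyap1, with 2547 and 2092, stood at 1.10 and 1.05 times, and Pnoc, with 2157, at 2.17 times. Correlations between members across libraries moved with it too: Pearson r between Sst and Cort was 0.80 over 18 hippocampal libraries and 0.12 over 17.

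**Figure D3:**
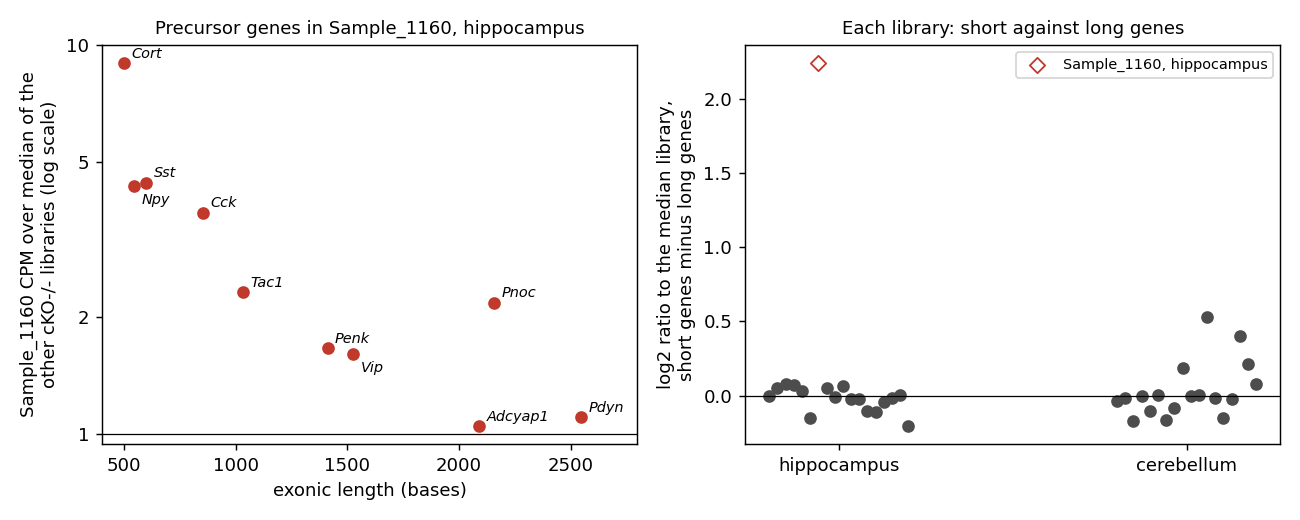
Left, the level of each precursor gene in hippocampal Sample_1160 over the median of the other cKO-/- libraries, on a log axis, against exonic length in bases. Right, the log2 ratio of short genes to long genes in each library, which reaches 2.24 in Sample_1160 and stays between -0.21 and 0.53 in all others.

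Marker genes of meninges and fibroblasts had positive slopes in the same hippocampal fit. Their 10 genes had a median of 0.42 per allele against 0.00 over all genes. An unadjusted p under 0.05 was reached by 7 of them, beside 2883 of 14339 genes. Of the 10, 1 was called, beside 4.44% of all genes: Lum, which rose by 0.46 (SE 0.120). Dcn had 0.70 (SE 0.215) and Col1a2 0.54 (SE 0.194) and did not pass. The list summed to between 72.4 and 343 CPM in the controls and between 130.4 and 450.4 CPM in the cKO-/- mice, with Igf2 the most abundant gene and none of the 10 at 0. Their part in the rise of Penk was not tested.

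Pdyn is a gene of dentate granule cells, and other hippocampal marker genes moved in the same samples. Of 15 hippocampal markers, 4 fell and 1 rose per allele lost, beside 4.44% of all genes called. Wfs1, a marker of CA1 pyramidal cells, fell by 0.50 on the log2 scale, and the granule cell genes C1ql2 and Dsp fell by 0.45 and 0.56, although C1ql2 was not called with Sample_1160 included, at -0.36. Tdo2, also a granule cell gene, rose by 0.42, and Prox1, the transcription factor that defines granule cells, had -0.15 and did not pass (adjusted p = 0.311 in the same quasi-likelihood test of edgeR (Benjamini-Hochberg)). Of 11 alternatives, C1ql2 lost the call in 4, Dsp in 3, Tdo2 in 3 (down to 0.21) and Wfs1 in 2, and Tdo2 lost it in 3 of 17 fits with 1 library left out. The marker list summed to between 1083 and 1822 CPM in the hippocampal libraries, with Fibcd1 the most abundant gene and none of the 15 at 0. The part of these shifts in the fall of Pdyn was not tested.

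By Pearson correlation of log2 CPM over 17 hippocampal libraries, the genes most like Pdyn were Slc26a10 (r = 0.95, Spearman rho 0.95), Stpg1 (r = 0.94, rho 0.95) and C1ql2 (r = 0.93, rho 0.92). Those most like Penk were Immp2l (r = 0.87, rho 0.84), Rps4l (r = 0.85, rho 0.86) and Kcnj10 (r = 0.83, rho 0.88), and those most like Npy, the member next in p, were Fam216a (r = 0.84, rho 0.80), Avpi1 (r = 0.82, rho 0.81) and Dcun1d2 (r = 0.82, rho 0.88). Without the 2 libraries farthest from the median of the member, these r lay between 0.72 for Dcun1d2 and 0.93 for Slc26a10. The libraries share genotype, sex and depth, so these values describe a pattern in these samples only.

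Among other genes of the peptide system in the hippocampus, processing genes and other precursors were called, at 3 of 22 and 3 of 15, beside 4.44% of all genes, and receptors were not. Of 15 tested receptors for the 10 peptides none was called by edgeR. An unadjusted p under 0.05 was reached by 3 of the 15, beside 2883 of 14339 genes. The median log2 fold change of the receptors was -0.01 against 0.00 over all genes. Npy2r, a presynaptic receptor for neuropeptide Y, came nearest at 0.18 (SE 0.0518), Sstr4 had -0.14 (SE 0.0501), and Oprk1, the dynorphin receptor, had 0.64 (SE 0.244). Of 22 genes for processing and dense core vesicles, 3 rose and none fell: Sytl4, a vesicle docking protein, by 0.48, the granin Scg2 by 0.26 and carboxypeptidase E, Cpe, by 0.10. Of 15 tested precursors outside the 10, Cartpt rose by 0.32 and Edn1 by 0.42, while Nmb fell by 0.20. With Sample_1160 included, Cpe (0.14), Cartpt (0.59), Edn1 (0.38) and Nmb (0.05) were not called, and Nmb turned positive. With 1 library left out in turn, the call was lost in 14 of 17 fits for Nmb, 7 for Edn1, 6 for Cartpt and 5 for Cpe. Among 30 interneuron genes 1 passed, the nicotinic receptor subunit Chrna2, which marks a class of somatostatin cells and fell by 0.38. Of 11 alternatives, Cpe and Cartpt lost the call in 6 each, Nmb in 5 with 1 reversal besides, Edn1 in 4, Scg2 in 3 (down to 0.16), Chrna2 in 2 and Sytl4 in 1.

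In the cerebellum 4 of the 7 members tested were called: Sst, Tac1 and Adcyap1 rose and Cck fell per Pogz allele lost. Vip, Pdyn and Cort did not reach 1 CPM in at least 6 libraries and were not tested there, so these counts do not cover all 10. No control exceeded 0.481 CPM of Tac1, which thus passed this filter through mutant libraries only. The control median of Sst was 0.681 CPM, so Sst also needed mutant libraries to pass. Among all 14027 genes tested 13.7% were called, and the median log2 fold change was 0.31 over the members tested and 0.00 over all genes. In the same fit 6 of 10 meningeal, 4 of 7 astrocyte, 3 of 7 microglial and 1 of 7 oligodendrocyte genes rose. No choroid plexus gene was called. The part of these cell types in the changes of the members was not tested.

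Sst was high in a few mutant libraries and not in the rest of the mutants. It had 0.455, 0.681 and 1.40 CPM as lowest, median and highest of the controls. The cKO-/- libraries had 38.0 (Sample_1385), 10.5 (Sample_1379), 7.85 (Sample_936), 0.670 (Sample_1160), 0.633 (Sample_1219) and 0.512 (Sample_1371) CPM. In cKO+/- mice Sample_1433 had 18.3 and Sample_933 had 6.66 CPM, and the other 4 lay between 0.326 and 0.682 CPM. So 5 of 12 mutant libraries lay above every control and the other 7 did not, 2 of which (Sample_938 and Sample_1189) lay below every control. Tac1 had 0.128, 0.227 and 0.481 CPM in the controls. Its cKO-/- libraries had 15.4 (Sample_1385), 4.35 (Sample_1379), 2.13 (Sample_936), 1.30 (Sample_1371), 1.16 (Sample_1160) and 0.699 (Sample_1219) CPM, all above every control. Of cKO+/- libraries, Sample_1433 had 8.51 and Sample_933 had 1.15 CPM, while the others lay between 0.205 and 0.405 CPM, within the controls.

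**Figure D4:**
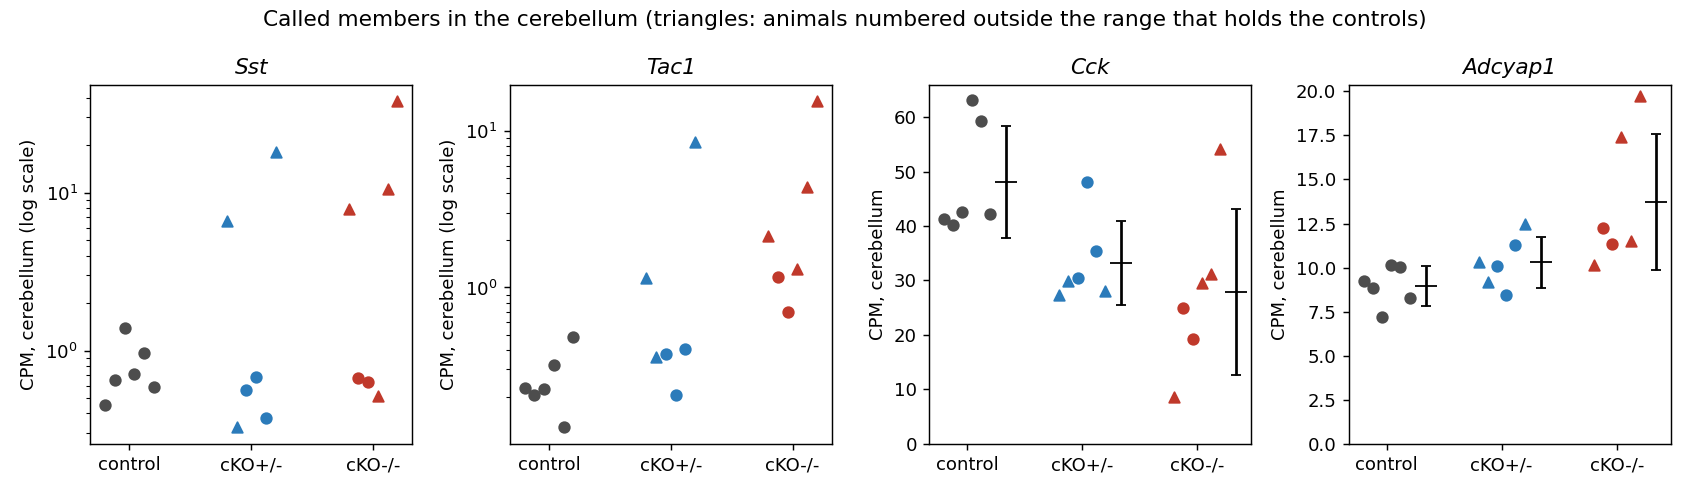
Levels in CPM of the 4 precursor genes called in the cerebellum, on log axes for Sst and Tac1, with 1 point per library and, for Cck and Adcyap1, bars for mean and SD. Triangles mark animals numbered outside Sample_1120 to Sample_1219, among them all 5 libraries with Sst above every control.

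The slope per allele was 1.85 (SE 0.605, adjusted p = 0.0477) for Sst and 1.98 (SE 0.528, adjusted p = 0.0206) for Tac1 in the quasi-likelihood test of edgeR (Benjamini-Hochberg). Tac1 entered this test and the genotype contrasts through mutant libraries only, and Sst needed them, so the libraries high in these genes admitted both. Between cKO-/- and control mice Tac1 was called at 4.02 (SE 1.06, adjusted p = 0.0208) and Sst was not, at 3.67 (SE 1.20, adjusted p = 0.0514). In this contrast Sst gained the call in 3 of 10 alternatives and 5 of 18 fits with 1 animal left out and reversed in 2 alternatives, and Tac1 lost it in 3 alternatives and in 2 such fits (without Sample_1190 or Sample_1385). Both slopes depended on single libraries. Without Sample_1385 Sst had 1.20 and Tac1 1.41, and neither was called. Sst was called in 5 of the 18 fits that left 1 animal out, controls among those whose loss ended the call, and Tac1 in 17. With a covariate for animals outside the range of numbers, Sst turned to -0.06 (adjusted p = 0.974) and Tac1 had 0.75 (adjusted p = 0.462). Inside the range alone Sst had -0.22 and Tac1 0.85, neither called, with 2 cKO-/- libraries. Over all alternatives the adjusted p ran from 0.00514 to 0.974 for Sst and from 0.000174 to 0.462 for Tac1.

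Markers of other brain regions were high in most of the same libraries. Slc17a6, listed here for brainstem, thalamus and deep cerebellar nuclei alike, had 120.8 CPM in Sample_1385, 105 in Sample_1433, 66.7 in Sample_936 and 59.0 in Sample_933. Elsewhere it had 25.8 CPM at most. Striatal Drd2 and hippocampal Fibcd1 were highest in Sample_1385 (4.69 and 5.50 CPM) and Sample_1433 (4.35 and 2.45 CPM). Striatal Adora2a and hippocampal Neurod6 were not highest in these libraries. The midbrain factor Gata3 had 4.01 CPM in Sample_1385, 2.85 in Sample_1433 and 0.748 in Sample_1379, and at most 0.252 CPM in any other library. Hoxb3, a hindbrain gene, was highest in Sample_936 at 4.15 CPM. Library Sample_1379, high in Sst and Tac1, was not high in the brainstem list as a whole, which summed to 56.8 CPM there, near the 58.8 CPM of Sample_1120 and the 63.4 CPM of Sample_938, where Sst had 0.566 and 0.326 CPM. Of the 16 brainstem genes 6 could be tested and 1 rose, Tph2, by 0.65, beside 13.7% of all genes called. Tph2 had a control mean of 0.780 CPM and thus needed mutant libraries to pass the filter. It was highest in Sample_1371 at 2.65 CPM, a library not high in Sst. Sample_1379 and Sample_1385, both high in Sst, had 2.07 and 1.97 CPM. Slc17a6 had a slope of 2.02 and did not pass (adjusted p = 0.0511 by the same edgeR test, Benjamini-Hochberg). Slc6a5 (0.30), Otx2 (0.22), Th (-0.32) and Slc18a2 (-0.09) did not pass either. With a score over 19 markers as covariate, which mixes choroid plexus with brainstem and midbrain, Sst had 0.83 and was not called (adjusted p = 0.248), and Tac1 had 1.41 (adjusted p = 0.0300). Without the 3 libraries high in choroid plexus genes they had 1.57 (adjusted p = 0.0594) and 2.05 (adjusted p = 0.00397). The share of region markers in the rise of Sst and Tac1 beyond these fits was not tested.

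Vip and Pdyn, below the filter, were seen mainly in the same libraries: Sample_1385 had 71 Vip and 34 Pdyn counts and Sample_1433 had 13 and 58, while Sample_933 had 15 Vip counts and no other library had over 8 of Vip or 9 of Pdyn. Cort stayed at 5 counts or fewer in every cerebellar library.

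Cck fell in the mutant cerebellum. Its lowest, median and highest levels were 40.1, 42.4 and 63.2 CPM in the controls and 27.3, 30.2 and 48.0 CPM in cKO+/- mice. In cKO-/- mice they were 8.52 (Sample_936), 27.2 and 54.1 CPM (Sample_1385), and 5 of these 6 libraries lay below every control. Cck has 854 exonic bases, and the controls highest in it were Sample_1172 at 63.2 and Sample_1190 at 59.2 CPM, while Sample_1385 and Sample_1379 (31.2 CPM) were the cKO-/- libraries highest in it. These 4 libraries had the highest ratios of short to long genes, whose part in the values of Cck was not tested. The slope was -0.42 per allele (SE 0.127, adjusted p = 0.0335), and the cKO-/- difference -0.84 (SE 0.262, adjusted p = 0.0418), by the quasi-likelihood test of edgeR (Benjamini-Hochberg). Inside the range of animal numbers the slope was -0.53 and called, but with the range as covariate it was -0.43 (adjusted p = 0.225). It was -0.32 (adjusted p = 0.0607) without the libraries high in choroid plexus genes and -0.36 (adjusted p = 0.106) with the region score. Over all alternatives the adjusted p ran from 0.00805 to 0.225. The call of the slope was also lost without any 1 of the animals Sample_1155, Sample_1172, Sample_1190, Sample_1219 and Sample_1379, and that of the cKO-/- difference in 12 of 18 such fits and in 5 of 10 alternatives.

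Adcyap1 rose. It had 7.17, 9.04 and 10.1 CPM in the controls, 8.43, 10.2 and 12.5 CPM in cKO+/- mice, and 10.2 (Sample_936), 11.4 (Sample_1219), 11.5 (Sample_1379), 12.2 (Sample_1160), 17.4 (Sample_1371) and 19.7 (Sample_1385) CPM in cKO-/- mice. All cKO-/- libraries exceeded every control, although the lowest of them, at 10.16 CPM, did so by a margin smaller than the spread of the controls, whose highest was 10.14 CPM. The slope was 0.31 (SE 0.0760, adjusted p = 0.0133), the cKO-/- difference 0.62 (SE 0.155, adjusted p = 0.0164), and the slope was called in all 18 fits that left out 1 animal. With the range as covariate it had 0.25 (adjusted p = 0.206), and inside the range alone 0.19, so the call was lost, and over all alternatives the adjusted p ran from 0.00213 to 0.208. These p come from the quasi-likelihood test of edgeR (Benjamini-Hochberg), or DESeq2 as 1 alternative. The granule cell marker Gabra6 was low in the libraries highest in Adcyap1, at 498 CPM in Sample_1385, 649 in Sample_1371 and 677 in Sample_1433, against 909.6 to 1040 CPM in the controls. It had 1017, 708, 1012 and 1030 CPM in Sample_1160, Sample_1379, Sample_1219 and Sample_1189, next in Adcyap1. In Sample_936, the cKO-/- library lowest in Adcyap1, it had 754 CPM. The slope of Gabra6 was -0.17 (SE 0.0719) and did not pass. Gad2, a marker of inhibitory neurons, had 369 CPM in Sample_1371, 354 in Sample_1385 and 244.7 in Sample_1433 and at most 248 CPM in the controls. Of 15 cerebellar markers 1 fell, Barhl1, and 1 rose, Slc1a6, beside 13.7% of all genes called. Their part in the rise of Adcyap1 was not tested. Tac1 and Adcyap1 were the 2 members whose cKO-/- libraries all lay on 1 side of the controls, as for 4.58% of the genes tested. Tac1 was among the genes tested through mutant libraries only, which favours such an outcome for it.

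Npy, Penk and Pnoc did not pass in the cerebellum. Penk, the most abundant member there, had 86.4, 106 and 139 CPM in the controls and 80.0, 93.0 and 123 CPM in cKO-/- mice, with a slope of -0.08 (SE 0.0565). Npy had 0.03 (SE 0.112) and Pnoc 0.36 (SE 0.160). Counted for cKO-/- against control mice, 3 of 7 members were called against 12.7% of all genes. For cKO+/- mice edgeR called none, against 0.342% of all genes. At an unadjusted p under 0.05 there were 3 of 7 members (Cck, Tac1 and Penk), beside 1631 of 14027 genes. DESeq2 called 158 genes there and 0 members.

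Genes most like the called members over 18 cerebellar libraries, by Pearson r of log2 CPM, were Tpd52l1 (0.95, Spearman rho 0.72), Tekt5 (0.94, rho 0.55) and Stk32c (0.93, rho 0.62) for Sst and Ptpro (0.97, rho 0.91), Pak6 (0.94, rho 0.82) and Zbtb7c (0.94, rho 0.87) for Tac1. For Cck they were Orai3 (0.88, rho 0.85), 2410124H12Rik (0.86, rho 0.85) and Creg1 (0.85, rho 0.76), and for Adcyap1 4931406C07Rik (0.89, rho 0.82), Sox11 (0.86, rho 0.78) and Pyurf (0.85, rho 0.76). Without the 2 libraries farthest from the median the r of Tpd52l1 was 0.90, that of Ptpro 0.93 and that of Sox11 0.61.

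Of 11 receptors of the 10 peptides tested in the cerebellum, 5 rose and 2 fell, with a median of 0.46, beside 13.7% of all genes called. Vipr2, a receptor for vasoactive intestinal peptide and PACAP, fell by 0.64 (SE 0.101) and Vipr1 by 0.36 (SE 0.118). Npy1r rose by 0.81 (SE 0.167), Oprk1 by 1.16 (SE 0.334), Sstr1 by 0.74 (SE 0.217), Sstr2 by 0.55 (SE 0.158) and Oprl1, the nociceptin receptor, by 0.46 (SE 0.143). Oprk1 and Sstr2 had control means of 0.265 and 0.644 CPM, so both needed mutant libraries to pass the filter of 1 CPM. Of 10 alternatives, Vipr2 lost the call in 0, Npy1r in 2 (down to 0.34), Sstr2 in 3 (0.45), Sstr1 in 3 (0.30) and Oprk1 in 4 (0.48). With 1 animal left out, Sstr1 lost it in 7 of 18 fits, Oprk1 in 4 of 12 and Sstr2 in 2 of 12, and Vipr2 and Npy1r in 0 of 18. In the rest of the 18 fits Oprk1 and Sstr2 did not pass the filter and were not tested. Oprl1 and Vipr1 were not included in either kind of check. Of 22 processing genes, Cpe (0.20), Qpct (0.46) and Scg2 (0.22) rose and Ptprn (-0.18) fell. Of 9 other precursors, Nmb fell by 0.39 and Edn3 by 0.19, and of 21 interneuron genes Gad2 (0.25), Satb1 (0.14), Kcnc2 (1.65) and Slc32a1 (0.15) rose. Of these, Scg2 lost the call in 5 of 10 alternatives and 11 of 18 fits with 1 animal left out, Edn3 in 3 and 7, Qpct in 3 and 4, Kcnc2 in 2 (down to 0.46) and 4, Slc32a1 in 2 (down to 0.0605) and 4, Ptprn in 2 and 3, Nmb in 2 and 2, and Cpe and Gad2 in 2 and 0, while Satb1 lost it in 0 and 0.

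**Figure D5:**
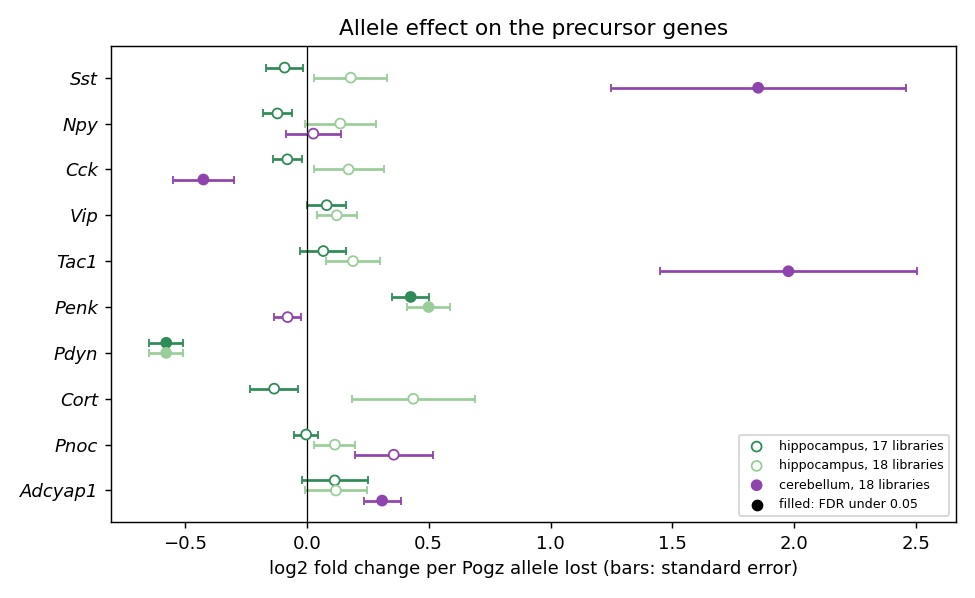
Log2 fold change per Pogz allele lost for each precursor gene, with standard errors, in the hippocampus without and with Sample_1160 and in the cerebellum, where filled points were called. Hippocampal Penk and Pdyn are called either way, and 5 others change sign with that library.

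Of the 10 members, Penk alone had an allele effect that differed between the tissues by edgeR, in a test in which 1.63% of 14870 genes were called. The hippocampal slope of Penk exceeded the cerebellar one by 0.49 (SE 0.0977, adjusted p = 0.00528 by the quasi-likelihood test of edgeR (Benjamini-Hochberg)). With the animal as a replicate block this was 0.48 (adjusted p = 0.0234), and with all 18 hippocampal libraries 0.57 (adjusted p = 0.00332), and over the 6 alternatives run the adjusted p was from 0.000217 to 0.0234. The range of animal numbers, which ended the call of Penk in the hippocampus, was not tested for this difference. Tac1 (-1.86, adjusted p = 0.0575), Sst (-1.82, adjusted p = 0.0889) and Pdyn (-1.48, adjusted p = 0.0979) missed the threshold by edgeR. Pdyn failed the filter in the cerebellum and needed hippocampal libraries to enter this test. Its cerebellar counts summed to 10 in the controls, 74 in cKO+/- and 52 in cKO-/- mice, so its cerebellar slope rests on few counts. DESeq2 called more genes, 461, and 3 members, with Tac1 and Pdyn besides Penk. The differences of Tac1, Sst and Pdyn were -1.26, -1.11 and -0.95 without Sample_1385, none of them called, and all 3 were called without Sample_1433. Tac1 was also called without Sample_1160, Sample_1219 or Sample_1371, and Sst without Sample_1160 or Sample_1219.

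Sex had no called effect on the members. In the hippocampus 0.907% of all genes were called between males and females and in the cerebellum 0.0499%. At an unadjusted p under 0.05 there were 0 of 10 members in the hippocampus, beside 2308 of 14339 genes. In the cerebellum there was 1 of 7, Npy, beside 475 of 14027 genes. Sex and allele interacted in 0% of genes by edgeR in the hippocampus, where 770 genes had an unadjusted p under 0.05, and in 0% in the cerebellum, where 557 did, and DESeq2 called 0 genes in either. In this test 0 members in the hippocampus and 1 in the cerebellum, Npy, had an unadjusted p under 0.05.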

How the data were processed

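RNA of the cerebellum and hippocampus was measured in the same 18 mice. The authors aligned reads with STAR 250a and deposited counts per gene, with gene coordinates and lengths. The deposited methods name mm9, while the coordinates of all 10 members match GRCm38. Counts were analysed in R 4.3.3 with edgeR 4.0.16, limma 3.58.1 and DESeq2 1.42.0. Only genes exceeding 1 CPM in 6 or more libraries were kept, with TMM scaling. The quasi-likelihood test of edgeR (Benjamini-Hochberg, FDR 0.05) took the slope per allele lost, genotype contrasts, the tissue contrast in controls and interactions, with a sex term. Hippocampal Sample_1160 was left out of the fits, but not of the filter and scaling. Tissues were paired by the number of the animal in each label, and this was checked by correlating deviations from the group means across genes: the median r over 17 animals was 0.264, with 15 above 0.1. Genes outside the 10 were named as the called genes of fixed lists with the smallest p, up to 5 per list and tissue, and others were chosen after their values were seen. Alternatives covered the test, scaling, filter, sex term, depth, libraries, animal numbers, other regions and blocks. Some marker genes of other regions are not reported here. The scripts were tested on simulated data. The members and lists were chosen with earlier results of these data known.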

Additional observations from a re-analysis of the deposited data

Results flagged for a closer look

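In 20 of 69 groups of 5 or 6 libraries, the highest or lowest library lay far from the nearest of the others, measured as its gap over the range of the group. The cut was set to flag about 1 in 20 groups of independent, normally distributed values. These groups share libraries, so the rate that chance gives here was not tested. In the hippocampus, 6 of these were Sample_1160 among the cKO-/- libraries: Sst at 629 CPM (nearest 164), Npy at 132 (35.8), Cck at 1013 (336), Tac1 at 17.8 (8.92), Cort at 32.5 (4.198) and Pnoc at 21.6 CPM (12.3). Among the other 5 cKO-/- libraries, Penk was far off in Sample_936, at 59.8 CPM (nearest 44.0).

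The controls held Sst in Sample_1170 at 219 CPM (nearest 166) and, in Sample_1172, Tac1 at 12.9 (7.83) and Adcyap1 at 8.63 CPM (4.73). In cKO+/- hippocampus Cck was low in Sample_1433 at 202 CPM (nearest 280.2), and Vip was high in Sample_1120 at 23.2 CPM (17.3).

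In the cerebellum 8 of the 20 were mutant libraries. The cKO+/- library Sample_1433 stood off for Sst at 18.3 CPM (nearest 6.66), Tac1 at 8.51 (1.15) and Pdyn at 1.78 CPM (0.252). The cKO-/- library Sample_1385 stood off for Sst at 38.0 CPM (nearest 10.5), Vip at 2.41 (0.272), Tac1 at 15.4 (4.35), Pdyn at 1.16 (0.300) and Pnoc at 7.75 CPM (3.40).

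The allele effect of Penk differed between the tissues in a test of the difference itself, by 0.49 on the log2 scale.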

How the results depend on the processing

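The alternatives are counted here without the fits that left 1 animal out. Of their values, 715 were rated as kept, 107 lost the call, 6 gained it, 22 reversed and 42 counts or values moved. Kept means the same direction and side of the threshold for an effect, a similar number for a count and an equal rank for a level. The cause was not tested except where fewer libraries or genes show it. Values are log2 fold changes or numbers of genes or members called. Here slope means the effect per allele.

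DESeq2 called 158 genes in cerebellar cKO+/-, and in the hippocampus 1056 for the slope, 95 in cKO+/- (1 member, Pdyn, at -0.55) and 1161 in cKO-/-, with 461 for the interaction (3 members). With all 18 hippocampal libraries the slopes were 0.17 for Cck, 0.44 for Cort, 0.0476 for Nmb, 0.14 for Npy, 0.12 for Pnoc and 0.18 for Sst, and 246 genes were called for the slope, 3 in cKO+/-, 256 in cKO-/- and 6 for sex.

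In animals numbered Sample_1120 to Sample_1219 alone, an alternative chosen after seeing the data, cerebellar values were 0.19 (slope) and 0.40 (cKO-/-) for Adcyap1, -0.28 for Npy, -0.22, -0.61 (cKO+/-) and -0.27 (cKO-/-) for Sst, and 0.85 and 1.77 (cKO-/-) for Tac1. Genes called were 277, 19 (cKO+/-) and 276 (cKO-/-), with 1 member for the slope and 1 in cKO-/-. Hippocampal values were -0.65 and -1.49 (cKO-/-) for Pdyn, 0.27 and 0.59 (cKO-/-) for Penk, 0.0347 for Pnoc and 0.0612 for Sst, where cKO-/- was 1 library, assumed to vary like the other groups, with 27, 1 and 10 genes and 0 members for the slope and in cKO-/- by edgeR.

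With the range of numbers as covariate, cerebellar values were 0.25 and 0.48 (cKO-/-) for Adcyap1, -0.43 and -0.88 (cKO-/-) for Cck, -0.11 for Npy, -0.0578, -0.65 (cKO+/-) and -0.28 (cKO-/-) for Sst, and 0.75 and 1.44 (cKO-/-) for Tac1, with 308, 24 and 280 genes and 0 members for the slope and in cKO-/-. Hippocampal values were -0.0503 for Adcyap1, 0.35 and 0.69 (cKO-/-) for Penk, 0.00972 for Pnoc and -0.0218 for Tac1, with 68, 2 and 81 genes and 1 member for the slope and in cKO-/-.

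With the region score, cerebellar values were -0.36 and -0.72 (cKO-/-) for Cck, 0.83 and -1.09 (cKO+/-) for Sst and 2.41 for Tac1 in cKO-/-, with 1138 genes and 2 members for the slope, 932 genes and 1 member in cKO-/-, and 3 genes in hippocampal cKO+/-. Without libraries high in choroid plexus genes, also chosen after seeing the data, they were -0.32 and -0.64 (cKO-/-) for Cck and 1.57 and -1.30 (cKO+/-) for Sst, with 2 members for the slope and 17 genes in cKO+/-. Hippocampal Pnoc had 0.0827, with 118 genes for the slope, 1 in cKO+/- and 123 in cKO-/-.

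Cerebellar Sst had 1.73 with the bias-adjusted fit and 1.84 without a filter, and Cck -0.39 and -0.78 (cKO-/-) without a sex term. After thinning, Cck had -0.81 in cKO-/-, and 2 genes were called in hippocampal cKO+/-. The block by animal changed no other call.

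With each animal left out in turn, cerebellar slopes ran from -0.54 to -0.33 for Cck, -0.0946 to 0.11 for Npy, 1.20 to 2.07 for Sst and 1.41 to 2.22 for Tac1. In cKO-/- cerebellum Cck ran from -1.08 to -0.65 and Tac1 from 2.96 to 4.45, and the hippocampal slope of Pnoc from -0.0386 to 0.0473, and Pdyn in hippocampal cKO+/- from -0.63 to -0.46. Genes called ran from 899 to 2555 for the cerebellar slope, 841 to 2459 in its cKO-/-, 278 to 929 for the hippocampal slope, 2 to 162 in its cKO+/-, 328 to 1599 in its cKO-/- and 115 to 464 for the interaction. Members called ran from 2 to 4 for the cerebellar slope, 1 to 4 in its cKO-/-, 0 to 1 in hippocampal cKO+/- and 1 to 4 for the interaction. For the tissue contrast 6 were called in each fit, since Vip, Tac1, Pdyn and Cort then did not reach 6 libraries above the minimum.

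Depth limits the cerebellar values of Vip, Pdyn and Cort, which rest on few counts in most libraries. With no control outside the range of animal numbers, genotype and that range cannot be told apart fully.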

Other observations

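Further marker lists, tested for the effect per allele with the same edgeR test, gave these counts, beside 4.44% of all genes called in the hippocampus and 13.7% in the cerebellum. In the hippocampus 1 of 10 striatal genes rose and 2 fell, 3 of 12 cortical genes fell, 1 of 10 thalamic genes fell, 1 of 10 meningeal genes rose (7 at an unadjusted p under 0.05) and 1 of 7 astrocyte genes rose. In the cerebellum 3 of 8 hippocampal genes rose and 1 fell, 1 of 15 cerebellar genes rose and 1 fell, 1 of 8 striatal genes fell, 4 of 6 cortical genes rose, 1 of 2 hypothalamic genes fell, 6 of 10 meningeal genes rose, 3 of 7 microglial genes rose, 1 of 7 oligodendrocyte genes rose and 4 of 7 astrocyte genes rose.
None of the genes tested was called by edgeR in the other lists, given here with the number at an unadjusted p under 0.05. Over all genes this number was 2883 of 14339 in the hippocampus and 4233 of 14027 in the cerebellum. In the hippocampus these were 7 cerebellar (1), 2 hypothalamic (0), 4 brainstem (0), 7 deep nuclear (1), 11 choroid plexus (0), 1 blood (0), 7 microglial (0) and 7 oligodendrocyte genes (3), and in the cerebellum 7 thalamic (3), 7 deep nuclear (3), 8 choroid plexus (2) and 1 blood gene (0).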
